A study of Mus musculus with 6 samples.

Results

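Heme breakdown and iron handling were examined in peritoneal cells sorted and labelled as endothelial cells (ECs) through 10 genes: the heme oxygenases Hmox1 and Hmox2, the biliverdin reductases Blvra and Blvrb, the ferritin chains Fth1 and Ftl1, the iron exporter Slc40a1, the transferrin receptor Tfrc, the repressor Bach1 and the phagosomal metal transporter Slc11a1. They were taken by symbol from a deposited table of 22183 genes, in which all 10 were found, each in a single row. RNA had been sequenced from 6 wild-type male C57BL/6J mice, 8 to 10 weeks old, 1 library per animal. The 3 PD mice had received PD fluid with 4.25% glucose by daily intraperitoneal injection for 6 weeks, and the 3 saline mice had received saline in the same way. The labels describe magnetic sorting of CD31+ cells, whereas the study's methods describe flow sorting of CD31+ CD45- cells from the mesentery, and leukocyte markers exceeded EC markers in these libraries, as given below. Between 21973426 and 26374292 reads were counted per mouse.

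Heme oxygenase opens the heme ring and releases iron, carbon monoxide and biliverdin, which biliverdin reductase turns into bilirubin. The freed iron is stored in ferritin, a shell built of heavy and light chains, or leaves the cell through ferroportin, the product of Slc40a1. Iron is taken up as transferrin through the receptor encoded by Tfrc. BACH1 binds heme and represses Hmox1, ferritin genes and Slc40a1, while NRF2 activates them. Macrophages that take up dying red cells express much of this pathway, and HMOX1 in ECs is known as a stress-induced, cytoprotective enzyme.

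Several of these transcripts carry an iron-responsive element (IRE), a hairpin bound by iron regulatory proteins, which blocks translation from a 5′ site and stabilises the transcript from 3′ sites. The transcripts of the GENCODE M21 annotation (GRCm38) were searched on the sense strand for a C, any 5 bases, CAGTG, any base and then 5 bases that pair, G with T allowed, with the 5 bases before CAGTG. Of the 10 genes, 4 held a match in an untranslated region. The sites are shown because they set apart the genes known for this type of post-transcriptional control, whose effect on translation read counts do not measure. In each line the capitals mark the bulged C and the CAGTG of the loop:
Fth1, 5′ UTR, exon 1, chr19:9982733-9982760, plus strand: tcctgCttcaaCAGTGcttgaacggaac
Ftl1, 5′ UTR, exon 1, chr7:45459779-45459806, minus strand: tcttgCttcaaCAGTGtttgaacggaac
Slc40a1, 5′ UTR, exon 1, chr1:45925465-45925492, minus strand: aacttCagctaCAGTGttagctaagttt
Tfrc, 3′ UTR, exon 19, chr16:32631220-32631247, plus strand: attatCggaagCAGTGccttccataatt
Tfrc, 3′ UTR, exon 19, chr16:32631599-32631626, plus strand: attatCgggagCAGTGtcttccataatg
Tfrc, 3′ UTR, exon 19, chr16:32631664-32631691, plus strand: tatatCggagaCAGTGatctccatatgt
Tfrc, 3′ UTR, exon 19, chr16:32631711-32631738, plus strand: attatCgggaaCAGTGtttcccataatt

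The ferritin and ferroportin sites lie 5′ and the 4 matches in Tfrc 3′ of the coding sequence. The pattern is strict and misses elements with other loops or unpaired stem bases, so the 4 need not be all the IREs of Tfrc. A match was found in the 5′ UTR of 28 of the 19466 genes with such a region of at least 40 bases (0.144%), and in the 3′ UTR of 127 of 20754 genes (0.612%).

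All 10 genes of heme and iron handling were among the 14005 that passed edgeR's low-count filter and entered the test. In PD mice, Hmox1, Slc11a1, Bach1, Ftl1, Slc40a1 and Fth1 were higher, and Hmox2, Blvra, Blvrb and Tfrc did not pass. The test was the quasi-likelihood test of edgeR, with p-values adjusted by Benjamini-Hochberg over all tested genes and a threshold of 0.05, and its values are given below as edgeR adjusted p. The 6 of 10 stand beside 31.1% of all tested genes called higher in PD mice, and beside 58.9% called in either direction. At least 2-fold higher were 2 of the 10 (Hmox1 and Slc11a1), against 15.4% of all tested genes, and none was at least 2-fold lower, against 1.8%. None was called lower by edgeR, DESeq2 or limma-voom, against 27.8% of all tested genes by edgeR. At an unadjusted p under 0.05, 1 of the 10 (Tfrc) was lower by each of the 3 tools. By edgeR, at least the same 27.8% of all tested genes were lower at that looser threshold. The median log2 fold change was 0.57 over the 10 genes and 0.02 over all tested genes. In CPM (read counts relative to library size, the size adjusted by edgeR's TMM method), the groups did not overlap in 7 genes that were higher and 1 that was lower in PD mice, where 34% and 31.6% of all tested genes were without overlap in these directions.

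Markers of ECs and of other cells were both present in every library. In the deposited FPKM, which are relative to gene length and library size, the leukocyte gene Ptprc (CD45) was at 624 ± 30.2 in saline mice and 392 ± 7.73 in PD mice (SD, n = 3 mice each), above Pecam1 (CD31), which was at 145 ± 4.44 and 158 ± 5.11, so these values go against a sort of CD45- cells. Each of 13 macrophage markers was higher in PD mice, by 0.95 to 3.19 on the log2 scale with a median of 2.04, and their summed level was 2697 to 2837 CPM in saline mice and 11180 to 12083 CPM in PD mice. Of 12 endothelial markers, 11 were higher, with a median of 0.98 and summed levels of 1112 to 1118 CPM in saline mice and 1828 to 1949 CPM in PD mice. In bulk samples such as these, more cells of a type and more RNA per cell cannot be told apart. When the libraries were scaled to the 12 endothelial markers instead of by TMM, the median of all tested genes moved from 0.02 to -0.97, and 1144 genes were called higher and 10136 lower (8.17% and 72.4% of those tested, 80.5% together). Of the 10 genes, 2 were then called higher and 6 lower. Each of the 10 genes is therefore given under both scalings below.

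Markers of other cell types differed as well. Under TMM scaling, all 6 mesothelial, 7 fibroblast, 6 mural, 5 mast cell and 9 pancreatic acinar markers were higher in PD mice, with median log2 fold changes of 3.61, 3.19, 1.48, 0.73 and 11.89, and all 5 B cell markers were lower, with a median of -1.17 and summed levels of 5012 to 5303 CPM in saline mice and 2358 to 2390 CPM in PD mice. Of 5 T cell markers 2 were lower, and of 4 pan-leukocyte genes 3 were lower and 1 higher. The summed acinar level was 2.26 to 5.81 CPM in saline mice and 7088 to 8003 CPM in PD mice. The part of these cells in the results below was not tested.

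**Figure D1:**
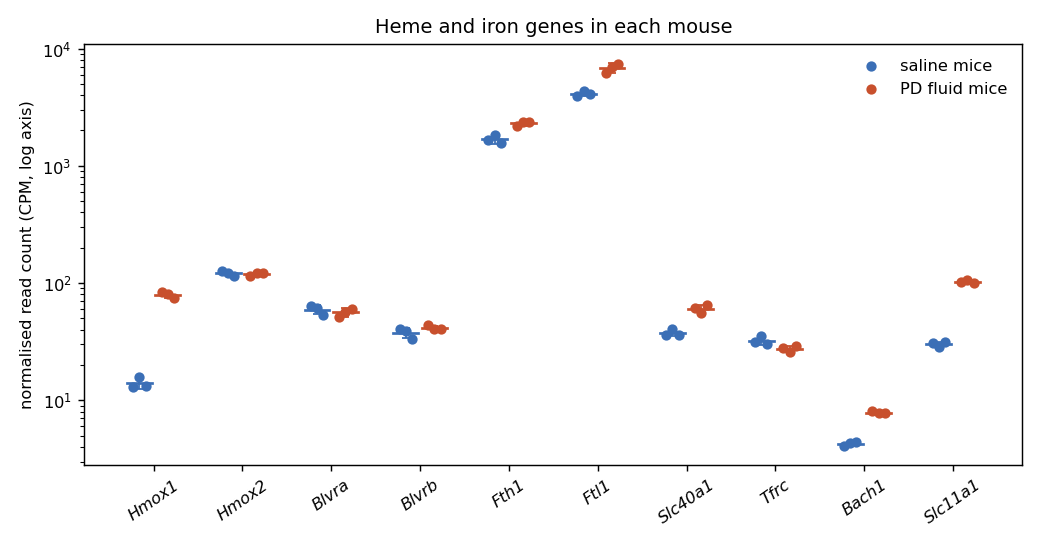
Normalised read count (CPM, log axis) of each of the 10 genes in each mouse, with blue points for saline mice, red points for PD mice, and bars for the mean and SD of 3 mice. Hmox1 and Slc11a1 show the widest gaps between the groups, and Hmox2 and Blvra overlap.

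Hmox1 (ENSMUSG00000005413; chromosome 8 of GRCm38, 75093621 to 75100589), the inducible heme oxygenase, was at 13.0, 15.8 and 13.2 CPM in the saline mice and at 83.6, 80.8 and 74.0 CPM in the PD mice. Every PD mouse was far above every saline mouse. Its log2 fold change was 2.51 (standard error 0.10, edgeR adjusted p = 6.04e-09), or 1.52 with endothelial marker scaling. Of the 14005 tested genes, 383 had a larger log2 fold change. The macrophage markers moved in the same direction, with Cd14 and Itgam above Hmox1 in log2 fold change at 3.19 and 2.69 and Adgre1 below it at 2.04, or 1.06 with endothelial marker scaling. Hmox1 also lay within the range of the fibroblast markers, 2.35 to 3.91, and of the neutrophil markers, 0.05 to 5.87. The part of these cell types in the change of Hmox1 was not tested.

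Hmox2 (ENSMUSG00000004070; chromosome 16, 4726361 to 4766742), which encodes the constitutive enzyme, was at 126, 122 and 116 CPM in saline mice and at 115, 122 and 122 CPM in PD mice. The groups overlapped, and their log2 difference was -0.02 (standard error 0.06, edgeR adjusted p = 0.850) and -1.0 with endothelial marker scaling. Per length, Hmox2 remained the more abundant of the pair: its mean was 84.9 ± 3.75 FPKM in saline and 85.5 ± 1.61 FPKM in PD mice, against 8.88 ± 0.90 and 50.9 ± 4.46 FPKM for Hmox1 (SD, n = 3 mice each).

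A ratio of both genes within a library does not depend on library scaling. Hmox1 was at 0.0935, 0.116 and 0.104 of the FPKM of Hmox2 in saline mice and at 0.655, 0.594 and 0.537 in PD mice. The ratio was higher in 3 of 3 PD mice than in any saline mouse, a difference of 2.51 on the log2 scale (exact two-sided permutation, p = 0.1, the smallest possible with 3 mice in each group, and 0.1 when adjusted by Benjamini-Hochberg over 4 ratios).

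The biliverdin reductase genes did not pass the test. Blvra (ENSMUSG00000001999; chromosome 2, 127070665 to 127097084) was at 63.8, 60.9 and 53.5 CPM in saline mice and at 51.2, 57.2 and 60.4 CPM in PD mice. The groups overlapped, and the log2 fold change was -0.08 (standard error 0.09, edgeR adjusted p = 0.479), or -1.06 with endothelial marker scaling. Blvrb (ENSMUSG00000040466; chromosome 7, 27447978 to 27466144), whose product reduces flavins as well as biliverdin, was at 40.3, 39.2 and 33.3 CPM in saline mice and at 43.7, 40.5 and 40.6 CPM in PD mice. Its groups were separated only by a narrow margin. With a log2 fold change of 0.15 (standard error 0.09, edgeR adjusted p = 0.194) Blvrb did not pass, and the value turned to -0.84 with endothelial marker scaling. The FPKM ratio of Blvra to Blvrb was 1.27, 1.27 and 1.37 in saline mice and 0.981, 1.19 and 1.24 in PD mice, a difference of -0.20 on the log2 scale (exact two-sided permutation, p = 0.1, the smallest possible, and 0.1 after adjustment over 4 ratios). PD mouse 1 set much of it, since the difference was -0.10 without that mouse, and without saline mouse 3 it was -0.17 (exact permutation p = 0.3).

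**Figure D2:**
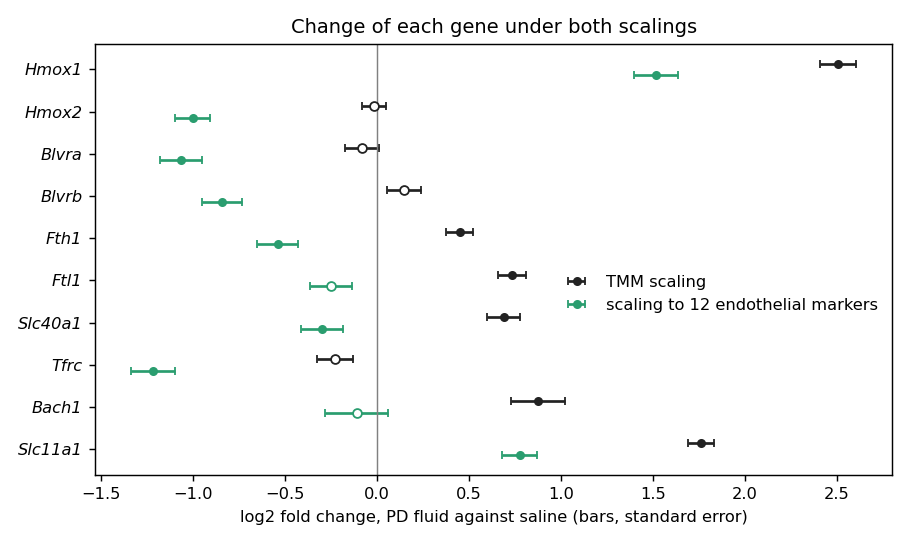
Log2 fold change of each gene, PD mice against saline mice, with bars for the standard error, under TMM scaling (black) and scaling to 12 endothelial markers (green). Open points did not pass an adjusted p of 0.05; Hmox1 and Slc11a1 lie above 0 under both scalings, at 2.51 and 1.52 and at 1.76 and 0.78.

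Ferritin transcripts were among the most abundant of the libraries. In mean FPKM over all genes, Ftl1 ranked 7 in saline and 5 in PD mice, and Fth1 ranked 22 and 17. Together they held 0.560%, 0.608% and 0.571% of all counted reads in the saline mice and 0.862%, 0.937% and 0.960% in the PD mice. All 3 PD mice lay above all 3 saline mice in this share, with means of 0.580 ± 0.0251% and 0.920 ± 0.0513% (SD, n = 3 mice each).

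Ftl1 (ENSMUSG00000050708; chromosome 7, 45457944 to 45459884), the light chain that promotes storage of iron in the shell, was at 3949, 4318 and 4135 CPM in saline mice and at 6200, 6987 and 7453 CPM in PD mice. There was no overlap. Ftl1 rose by a log2 fold change of 0.73 (standard error 0.08, edgeR adjusted p = 1.72e-05) which turned to -0.25 with endothelial marker scaling, where the adjusted p was 0.0547. A pseudogene listed in the same table, Ftl1-ps1, moved alike, from 33.3 ± 2.28 to 58.5 ± 5.61 CPM (SD, n = 3 mice each). Reads of the near-identical copies could be split between them, so the value of the pseudogene is uncertain.

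Fth1 (ENSMUSG00000024661; chromosome 19, 9980598 to 9985098), the heavy chain that oxidises iron for storage, was at 1663, 1844 and 1551 CPM in saline mice and at 2166, 2360 and 2382 CPM in PD mice. Here too every PD mouse was above every saline mouse, and the log2 fold change was 0.45 (standard error 0.08, edgeR adjusted p = 0.000458), against -0.54 with endothelial marker scaling. The FPKM ratio of light to heavy chain was 2.27, 2.24 and 2.56 in saline mice and 2.74, 2.84 and 3.00 in PD mice. It was higher in all 3 PD mice by 0.28 on the log2 scale (exact two-sided permutation, p = 0.1, the smallest possible, and 0.1 after adjustment over 4 ratios). As shown above, the IREs of both chains share the 5 bases between the bulged C and the CAGTG of the loop. The C and the CAGTG themselves were required by the search and are in every site shown.

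Slc40a1 (ENSMUSG00000025993; chromosome 1, 45908068 to 45926523) encodes ferroportin, the exporter of cellular iron. It was at 35.9, 40.6 and 36.3 CPM in saline mice and at 61.6, 55.4 and 64.8 CPM in PD mice, without overlap. The log2 fold change was 0.69 (standard error 0.09, edgeR adjusted p = 6.71e-05), against -0.30 with endothelial marker scaling (edgeR adjusted p = 0.0218).

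Tfrc (ENSMUSG00000022797; chromosome 16, 32608920 to 32632794), the receptor for iron-loaded transferrin, was at 31.4, 35.4 and 30.1 CPM in saline mice and at 28, 25.7 and 29.0 CPM in PD mice. The PD mice were below the saline mice, but by little more than the spread within a group. On the log2 scale the difference was -0.23 (standard error 0.10), with an unadjusted p of 0.0375 and an edgeR adjusted p of 0.0614. Without saline mouse 3 the adjusted p was 0.0455, and with endothelial marker scaling the log2 fold change was -1.22.

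The genes of iron export and uptake were also set against each other within each library. The FPKM ratio of Slc40a1 to Tfrc was 1.61, 1.64 and 1.75 in saline mice and 3.02, 2.95 and 3.14 in PD mice. All PD mice lay above all saline mice, by 0.87 on the log2 scale (exact two-sided permutation, p = 0.1, the smallest possible, and 0.1 after adjustment over 4 ratios).

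**Figure D3:**
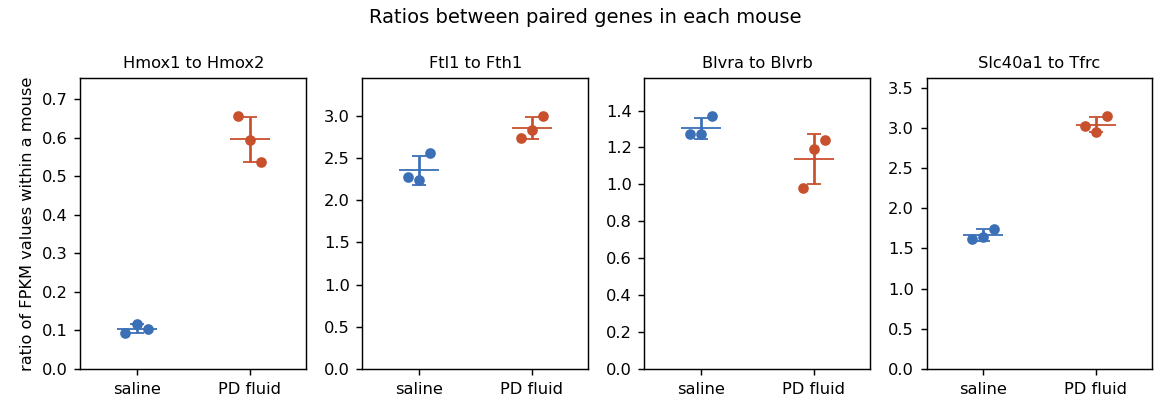
Ratio of the deposited FPKM values of gene pairs within each mouse, on linear axes from 0, with points for mice and bars for the mean and SD of 3 mice per group. The mean Hmox1 to Hmox2 ratio was 0.105 in saline and 0.595 in PD mice, the mean Slc40a1 to Tfrc ratio 1.67 and 3.04, and the PD mice lay below the saline mice in the Blvra to Blvrb ratio.

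Slc11a1 (ENSMUSG00000026177; chromosome 1, 74375195 to 74386062), the phagosomal metal transporter NRAMP1, is expressed in macrophages and neutrophils, and the C57BL/6J strain carries a loss-of-function allele of it. It was at 31.0, 28.7 and 31.1 CPM in saline mice and at 102, 106 and 100.2 CPM in PD mice. The groups were widely separated and each was narrow. Slc11a1 rose by a log2 fold change of 1.76 (standard error 0.07, edgeR adjusted p = 8.40e-09), or 0.78 with endothelial marker scaling. The value lies within the range of the macrophage markers and below their median. It also lies within the range of the mural markers, 0.26 to 1.95, and of the neutrophil markers, 0.05 to 5.87. Of 7 neutrophil markers, 6 were tested and 5 were higher, among them S100a8 at 5.87, and their summed level was 15.9 to 18.5 CPM in saline mice and 188 to 203 CPM in PD mice. The part of these cells in the change of Slc11a1 was not tested.

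Bach1 (ENSMUSG00000025612; chromosome 16, 87698945 to 87733346), the heme-sensing repressor, was the least abundant of the 10 genes, at 0.726 ± 0.0303 FPKM in saline and 1.34 ± 0.0656 FPKM in PD mice (SD, n = 3 mice each). It was at 4.10, 4.29 and 4.43 CPM in saline mice and at 8.06, 7.72 and 7.75 CPM in PD mice, from 93 to 107 and 171 to 219 counts. The groups did not overlap. The log2 fold change was 0.88 (standard error 0.15, edgeR adjusted p = 0.000493), and it was -0.11 with endothelial marker scaling (edgeR adjusted p = 0.569). The transcript of this repressor and those of its known targets Hmox1, Fth1, Ftl1 and Slc40a1 were thus all higher in PD mice under TMM scaling, whereas only Hmox1 among these 5 was higher with endothelial marker scaling.

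In order of FPKM, Ftl1 and Fth1 led in both groups, followed by Hmox2. In saline mice came next Blvra at 52.1 ± 4.15 and Blvrb at 40.1 ± 4.73, then Slc11a1 at 13.1 ± 0.705, Slc40a1 at 11.1 ± 0.675, Hmox1 at 8.88 ± 0.904 and Tfrc at 6.67 ± 0.531 (SD, n = 3 mice each). In PD mice Hmox1 at 50.9 ± 4.46, Blvra at 50.9 ± 2.58, Blvrb at 45.0 ± 3.38 and Slc11a1 at 44.6 ± 1.97 followed Hmox2. The ranges over the 3 PD mice overlapped between neighbours among these 4. Slc40a1 was at 18 ± 1.35 FPKM and Tfrc at 5.93 ± 0.328 FPKM in PD mice.

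RefSeq promoter windows (GRCm38.p6, from 250 bases before to 50 after a start site) were matched for 8 of the 10 genes, with 13 windows in all, and not for Hmox1 and Slc40a1. On either strand, the antioxidant response element core TGACNNNGC, bound by NRF2 and BACH1 with small MAF proteins, was found in the window of Blvra alone. It is shown with its flanks, the match in capitals and read on the opposite strand:
Blvra, chr2:127070598-127070626, plus strand: cacgggaattGCTCGGTCAaggctccgcc
This core is held by 12.4% of the 32851 windows of all genes. The AP-1 core TGANTCA, held by 7.81% of windows, was in none of the 13. These letters say nothing of more distant elements.

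**Figure D4:**
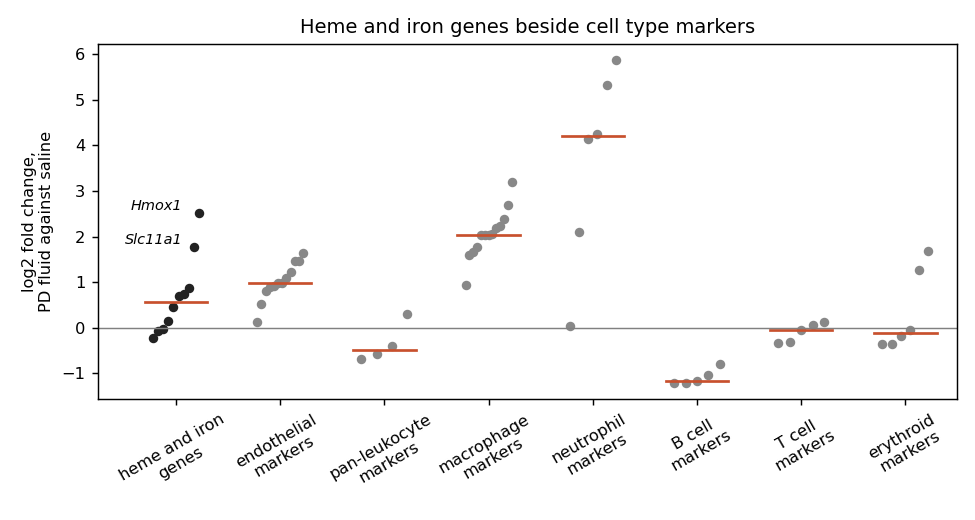
Log2 fold change, PD mice against saline mice under TMM scaling, of the 10 heme and iron genes (black) and of the tested genes of 7 cell type marker lists (grey), with the median of each list in red. Hmox1 at 2.51 and Slc11a1 at 1.76 lie in the range of the macrophage markers, 0.95 to 3.19 with a median of 2.04. Both also lie in the neutrophil range, 0.05 to 5.87. The other 8 genes lie below the macrophage range, and Bach1, Ftl1, Slc40a1, Fth1 and Blvrb lie in the endothelial range, 0.13 to 1.65. Of the lists not drawn, the fibroblast range, 2.35 to 3.91, holds Hmox1, and the mural range, 0.26 to 1.95, holds Slc11a1.

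Red cells are a further source of heme. The erythroid list had 8 genes in the table, of which 6 were tested, with 1 higher and 2 lower in PD mice. The globin genes Hba-a1, Hba-a2, Hbb-bs and Hbb-bt were at 457, 571, 340 and 35.3 CPM in saline mice, and at 360, 449, 300.4 and 34.2 CPM in PD mice. Both alpha genes were lower, with log2 fold changes of -0.34 and -0.35 (edgeR adjusted p = 0.00101 and 0.000858), and the beta genes did not pass at -0.18 and -0.05. Reads of these near-identical pairs could be split between copies. Over the erythroid list, the mean log2(CPM + 1) was 4.08 ± 0.0594 in saline and 4.09 ± 0.0178 in PD mice (SD, n = 3 mice each; two-sided exact permutation test, p = 0.8, and 0.8 when adjusted by Benjamini-Hochberg over 12 marker lists).

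The other genes of the pathway were read from 8 lists with 67 genes, of which 60 were tested. In PD mice 36 were higher, 11 lower and 13 not called by edgeR's quasi-likelihood test, with a median log2 fold change of 0.52. These are 60% higher and 18.3% lower, beside 31.1% and 27.8% of all tested genes. With endothelial marker scaling, 13 were higher and 37 lower, with a median of -0.47, or 21.7% and 61.7% beside 8.17% and 72.4% of all tested genes. Each list is given under both scalings, and its counts are to be read against these shares of all genes. Values of single genes are log2 fold changes under TMM scaling unless stated.

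Heme synthesis had 9 tested genes, of which 2 were higher and 6 lower under TMM scaling, and all 9 lower with endothelial marker scaling, where 27.8% and 72.4% of all tested genes were lower. Alas1, the first and rate-limiting enzyme outside the erythroid lineage, was higher, from 48.2 ± 0.513 to 79.6 ± 5.66 CPM (n = 3 mice each, SD), a log2 fold change of 0.72 that turned to -0.26 with endothelial marker scaling. Cpox was also higher, at 0.44, and turned to -0.54. Uros and Alad were lowest at -0.53 and -0.43, and Fech, which inserts iron into the ring, was at -0.20. With 1 erythroid exception, Alas2, at -0.25 (edgeR adjusted p = 0.0893), every gene of the list passed the threshold.

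Of 8 tested genes for uptake and transport of heme and hemoglobin, 7 were higher, against 3 higher and 3 lower with endothelial marker scaling. Haptoglobin (Hp), which binds free hemoglobin, rose from 1.89 ± 0.470 to 21.1 ± 0.852 CPM, a log2 fold change of 3.47. Lrp1, the receptor for heme bound to hemopexin, had one of 2.77, and both stayed higher with endothelial marker scaling, at 2.49 and 1.79. Cd163, the macrophage receptor for haptoglobin bound to hemoglobin, was at 49.4 and 129.8 CPM, a log2 fold change of 1.39. Flvcr2, a heme transporter, did not pass, at 0.57 (edgeR adjusted p = 0.223).

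In a list of iron import, carriers and reduction, which also holds the ferroxidases Heph and Cp that serve export, all 11 tested genes were higher, with a median log2 fold change of 1.70, and with endothelial marker scaling 7 were higher and 1 lower. Transferrin (Trf), the iron carrier of plasma, was the most abundant by count and rose from 396 ± 0.819 to 1289 CPM, a log2 fold change of 1.70. Lactoferrin (Ltf), a product of neutrophil granules, had 5, 0 and 0 counts in the saline mice and 1027, 891 and 717 counts in the PD mice. Heph and Cp were at 0.97 and 1.34, or -0.01 and 0.36 with endothelial marker scaling. Steap2, a metalloreductase, had 2, 0 and 5 counts against 21, 38 and 36, too few in saline mice for a stable fold change. The neutrophil markers S100a8 and S100a9 moved with Ltf, from 1.42 to 82.9 CPM and from 1.01 to 40.5 CPM. Of the same marker list, Cxcr2 did not pass, at 0.05 (edgeR adjusted p = 0.874), and Ly6g did not enter the test. The part of neutrophils in the rise of Ltf was not tested.

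Of 3 tested genes that load or turn over ferritin, 2 were higher, the iron chaperone Pcbp1 at 0.56 and the ferritinophagy receptor Ncoa4 at 0.23, but all 3 were lower with endothelial marker scaling. In the list of iron sensing and systemic regulation, 5 of 7 tested genes were higher, led by Hfe at 1.37 and Bmp2 at 1.18, and 1 lower, against 1 higher (Hfe, at 0.38) and 3 lower with endothelial marker scaling. The iron regulatory protein genes moved apart under TMM scaling, with Aco1 higher at 0.23 (edgeR adjusted p = 0.0183) and Ireb2 lower at -0.37 (edgeR adjusted p = 0.0220). With endothelial marker scaling both were lower, at -0.75 for Aco1 and -1.36 for Ireb2.

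For mitochondrial iron and iron-sulfur clusters, 3 of 8 genes were lower and 5 did not pass, while all 8 were lower with endothelial marker scaling. The 3 of 8, or 37.5%, are near the 27.8% of all tested genes called lower under TMM scaling, and 72.4% of all genes were lower under the other. None of the list was higher under TMM scaling, where 31.1% of all tested genes were, and its median log2 fold change was -0.20.

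In a list of 6 transcription factors that act on Hmox1 and Keap1, the inhibitor of NRF2, 5 of 7 genes were higher and 1 lower, against none higher and 6 lower with endothelial marker scaling. Nfe2l2, which encodes NRF2, rose from 101 ± 8.67 to 151 ± 1.48 CPM (n = 3 mice each, SD), a log2 fold change of 0.58 that turned to -0.41 with endothelial marker scaling, and Maff, a small MAF partner, had one of 1.28. Spic, the factor of iron-recycling macrophages, was lower at -0.64. All 13 macrophage markers were higher, and all 5 B cell markers were lower, with a median of -1.17. The part of these cells in the change of Spic was not tested. Keap1 was at -0.01 (edgeR adjusted p = 0.934). Of 7 other targets of NRF2 and BACH1, 4 were higher, or 2 higher and 4 lower with endothelial marker scaling. The cystine transporter gene Slc7a11 at 2.32 and the sulfiredoxin gene Srxn1 at 1.59 led and stayed higher, at 1.34 and 0.60, and under TMM scaling Gclc, Txnrd1 and Gpx4 did not pass, at 0.08, 0.02 and 0.02.

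**Figure D5:**
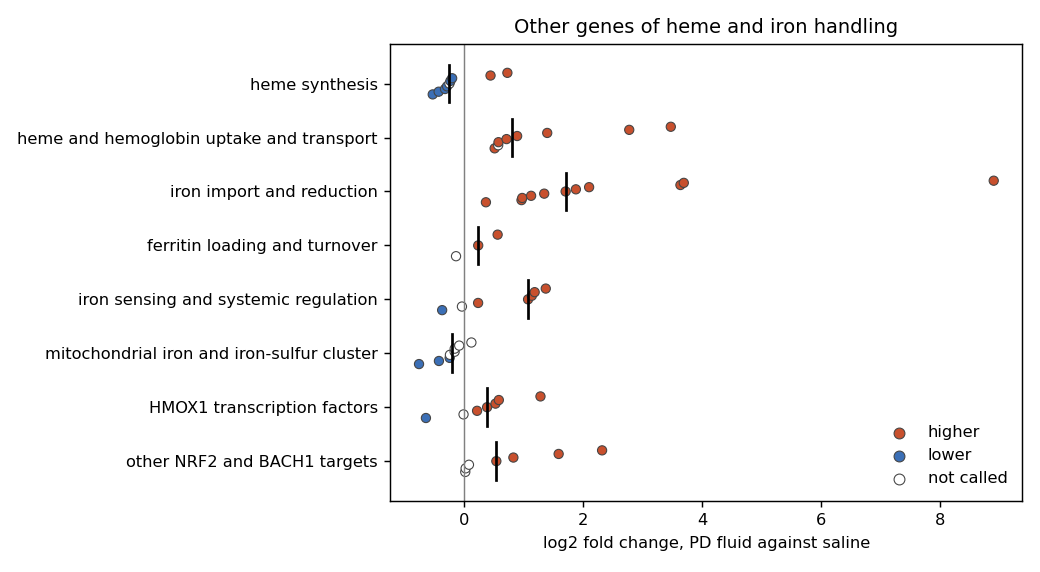
Log2 fold change, PD mice against saline mice under TMM scaling, of 60 tested genes in 8 lists of heme and iron handling. Red points were called higher, blue lower and white neither, and the black lines are the medians, from -0.25 for heme synthesis to 1.70 for iron import and reduction.

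To find genes with a profile like that of Hmox1, log2(CPM + 1) of each gene was centred on its saline mean, and 12910 tested genes with a mean of at least 1 CPM were compared with Hmox1 over the 6 mice by root mean square difference. The closest were Ighv13-2 (0.0695), Adamtsl1 (0.0730) and Tnf (0.0744). Tnf, a cytokine gene, stood at 7.40 ± 1.02 CPM for saline and 46.7 ± 0.678 CPM for PD mice (n = 3 each, SD). For Slc40a1 they were Elovl5 (0.0402), C1qtnf12 (0.0528) and Ccdc184 (0.0542), and for Tfrc they were Ldah (0.0255), Isy1 (0.0272) and Metap1 (0.0312). Since the pseudocount draws scarce genes towards 0, a gene at few CPM, such as Adamtsl1 with a log2 fold change of 4.12, can come close to Hmox1 on this scale.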

How the data were processed

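RNA sequencing of CD31-sorted peritoneal cells from 3 saline and 3 PD mice was analysed from a table of 22183 genes. The authors deposited whole-number read counts per gene and mouse, without normalization, and FPKM values they computed per mouse. Their group means, log2 ratio and p-value are in the deposited table and were not used. The submitters' processing notes name fastp 0.18.0, Bowtie2 2.2.8, HISAT2, StringTie 1.3.1 and RSEM, and RSEM estimates counts, so the whole numbers could be rounded estimates. The genome build is not given in the sources used here, and positions are those of GENCODE M21 (GRCm38), which held 22128 of the identifiers. All sample columns were matched to labels.

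The read counts were fitted in edgeR 4.0.16 under R 4.3.3, with filterByExpr, TMM and the quasi-likelihood test between both groups without a covariate. For alternatives limma 3.58.1 and DESeq2 1.42.0 were used. Standard errors were derived from the F statistic. Python 3.11.15, pandas 2.3.3 and scipy 1.17.1 were used for tables, and the script of the test was tested on simulated data. Ratios of FPKM within a library and marker lists were compared by exact permutation tests. Nothing in the labels says more of the replicates than that they are separate mice. Total counts were 21973426 to 26374292 per mouse. Mice of the same group differed by more than the sampling of reads alone would give. Over genes with a mean of at least 10 counts, chi-square per degree of freedom between mice of a group was 6.46 to 17.8.

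The 10 genes and the lists were chosen with earlier results of these data known. The genes named are the 10 genes, up to 2 higher and 2 lower genes of each pathway list with the largest changes and a mean of at least 10 counts, marker genes, and the 3 nearest profiles to Hmox1, Slc40a1 and Tfrc. Other pathway genes were named after their values were seen. Some genes that this rule names are not reported here. The alternatives were a replicate block, no count filter, DESeq2, limma-voom, endothelial marker scaling, upper quartile scaling, a 2-fold threshold, ratios of raw counts and leaving out each mouse in turn.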

Additional observations from a re-analysis of the deposited data

How the results depend on the processing

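The 6 genes called higher stayed 6 with DESeq2, limma-voom, no count filter, upper quartile scaling, the replicate block and each mouse left out. With endothelial marker scaling 2 were higher and 6 lower, and the log2 fold change was -0.54 for Fth1, -0.25 for Ftl1, -0.30 for Slc40a1, -0.11 for Bach1 and -0.84 for Blvrb; of the pathway lists 13 genes were then higher and 37 lower. Of the 12 markers that this scaling holds equal on average, 11 were called higher under TMM scaling and Pecam1 was not. A change of at least 2-fold left 2 of the 10 genes (Hmox1 and Slc11a1) and 2410 of all tested genes. Leaving out each mouse gave 0 to 1 of the 10 genes lower (Tfrc, without saline mouse 3) and 6 to 10 pathway genes lower, and 6 (without saline mouse 1) and 7 (without PD mouse 1 or 2) were the counts furthest from 11. The log2 fold change of Hmox2 lay between -0.053 and 0.019, above 0 without saline mouse 1 and without PD mouse 1. Ratios of raw counts kept each direction, at 2.52, 0.28, -0.23 and 0.91.

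With the replicate number as a block, 7909 genes passed, against 8246, with 6 of the 10 genes higher. Mice with the same number did not deviate together (r = 0.19, 0.07 and -0.27 across genes), so the numbers were not taken as pairs. Exact tests over 3 mice against 3 cannot go below p = 0.1, and Bach1, at 93 to 219 counts, is the least deeply covered of the 10 genes.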

Other observations

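The IRE pattern of the ferritin and ferroportin transcripts was also found in other genes. Of the 28 genes with a match in the 5′ UTR, 25 were tested. Besides Fth1, Ftl1 and Slc40a1, 22 genes remain, of which 5 were higher, 7 lower and the others not called by edgeR's quasi-likelihood test, with a median log2 fold change of 0.06 under TMM scaling. These counts are near the 31.1% higher and 27.8% lower among all tested genes. With endothelial marker scaling 1 was higher and 17 were lower, with a median of -0.93, beside 8.17% and 72.4% of all tested genes. They include Ftl1-ps1 at 0.81 and Alas2 at -0.25 (edgeR adjusted p = 0.0893). These genes were gathered by sequence after the results for the 10 genes had been seen, and no test of the group was made.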
